A study of Mus musculus with 28 samples.

Results

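The genes that write, copy and remove DNA methylation were followed at the level of nascent RNA in mouse embryonic stem cells (mESCs) with and without Elongin A (EloA), the elongation factor encoded by Eloa. They were taken by name from the gene tables and are Dnmt1, Dnmt3a, Dnmt3b, Dnmt3l, Uhrf1, Tet1, Tet2, Tet3 and Tdg, 9 of the 24984 genes listed. The assay was Bru-seq: 5-bromouridine (BrU) is given to living cells for a few minutes, and the RNA that carries it is immunopurified and sequenced. WT and EloA null CCE28 mESCs, both grown with LIF and the inhibitors PD0325901 and CHIR99021 on mouse embryonic fibroblasts (MEFs) and depleted of MEFs before labelling, were compared in 3 conditions with 2 libraries per genotype. In steady state, cells had 2 mM BrU for 10 min. In the 5-min and 10-min recovery samples, cells first had 1 µM flavopiridol (FP), an inhibitor of the kinase P-TEFb that blocks the entry of Pol II into productive elongation, for 60 min, and then BrU for 5 or 10 min once the drug had been washed out. The study used these conditions to ask whether loss of EloA alters nascent transcription and the movement of Pol II along genes.

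The null cells were a single line obtained from another laboratory, and the libraries of a group came from independent experiments. Whether these used separately kept cultures of the line is not given in the sources used here, so each p-value measures only the spread between these libraries. The treatment text of the labels names CJ7 cells where the growth text names CCE28, and this was not resolved. Libraries were grouped by title, because the first steady-state library titled EloA null has wild type as its genotype label. Its Eloa value of 1.96 RPKM (reads per kilobase of the length assigned to a gene, scaled to library size) lay beside the 1.89 of the other EloA null library and above the 1.18 and 1.16 of the WT libraries. Nascent RNA of the targeted gene thus went against the label in every condition: Eloa was at 2.96 and 2.82 RPKM in WT and 5.14 and 6.25 in the null libraries at 5 min, and at 4.65 and 6.51 against 8.74 and 8.93 at 10 min. Its mean log2 difference over the 3 conditions was 0.77 (SE 0.09, adjusted p = 0.00143 by limma with Benjamini-Hochberg correction). The position of the targeted change within Eloa is not given in the sources used here, so this value does not test the absence of the protein. The study itself examined EloA protein in WT and null mESCs by immunoblot. It also reports that EloA signal in CUT&RUN, a chromatin mapping assay, fell near the IgG background at Rn45s in null cells. Groups are named here by their titles, as the libraries labelled EloA null, or the null libraries.

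In mammals, DNA methyltransferases place a methyl group on cytosine, mostly at CpG. DNMT3A and DNMT3B methylate unmodified DNA, with DNMT3L as a partner that has no catalytic activity of its own. DNMT1 copies the mark onto the new strand after replication, brought there by UHRF1, which binds hemimethylated CpG. TET1, TET2 and TET3 oxidise methylated cytosine, and TDG, a thymine DNA glycosylase, cuts out its further oxidised forms so that base excision repair can restore an unmodified cytosine. In mESCs kept with LIF and the 2 inhibitors, DNA methylation is known to be low.

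The 300-base windows around the annotated starts show how unlike these genes are in their promoters, and the 6 that bear on the results below are printed here. They run from 250 bases before to 50 after a start and come from RefSeq on GRCm38.p6, which gives 16 windows for the 9 members. Dnmt3a is shown at its upstream start (chr12:3806730-3807029, plus strand) and at a start inside the gene (chr12:3891494-3891793, plus strand), since its RPKM pools the transcripts of both. Dnmt3b (chr2:153649199-153649498, plus strand) and Tet3 (chr6:83441629-83441928, minus strand) are the members whose difference between genotypes in the deposited RPKM kept its sign in all 3 conditions. Tet1 (chr10:62887275-62887574, minus strand) and Tet2 (chr3:133544341-133544640, minus strand) are alike in length and level and unlike in their recovery from FP. Capitals mark the GC box, GGGCGG or its reverse complement CCGCCC, with overlapping matches joined, and all windows read 5′ to 3′ on the strand of the gene.
Dnmt3a, upstream start: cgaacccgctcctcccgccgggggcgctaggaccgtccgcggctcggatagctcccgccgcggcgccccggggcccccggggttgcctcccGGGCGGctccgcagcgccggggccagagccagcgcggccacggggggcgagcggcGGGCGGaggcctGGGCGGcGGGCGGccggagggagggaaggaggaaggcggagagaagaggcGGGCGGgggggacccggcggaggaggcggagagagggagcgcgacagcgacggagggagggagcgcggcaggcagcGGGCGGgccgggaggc
Dnmt3a, internal start: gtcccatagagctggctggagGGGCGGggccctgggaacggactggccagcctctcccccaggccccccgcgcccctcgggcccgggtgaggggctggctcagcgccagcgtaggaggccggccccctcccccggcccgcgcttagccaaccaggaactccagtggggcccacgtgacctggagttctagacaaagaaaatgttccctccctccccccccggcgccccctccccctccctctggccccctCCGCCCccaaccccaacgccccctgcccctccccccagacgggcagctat
Dnmt3b: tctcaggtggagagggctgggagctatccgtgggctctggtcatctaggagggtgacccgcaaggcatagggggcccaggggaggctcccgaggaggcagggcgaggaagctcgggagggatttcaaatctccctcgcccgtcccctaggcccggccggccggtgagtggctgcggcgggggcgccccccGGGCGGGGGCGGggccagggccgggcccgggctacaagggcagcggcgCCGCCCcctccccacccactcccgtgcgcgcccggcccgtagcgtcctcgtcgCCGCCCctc
Tet3: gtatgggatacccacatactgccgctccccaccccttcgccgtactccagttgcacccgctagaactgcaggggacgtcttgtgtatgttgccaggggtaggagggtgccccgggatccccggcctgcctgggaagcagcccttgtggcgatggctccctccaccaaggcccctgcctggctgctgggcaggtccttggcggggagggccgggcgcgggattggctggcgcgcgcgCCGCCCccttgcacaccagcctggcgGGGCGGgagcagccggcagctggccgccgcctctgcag
Tet1: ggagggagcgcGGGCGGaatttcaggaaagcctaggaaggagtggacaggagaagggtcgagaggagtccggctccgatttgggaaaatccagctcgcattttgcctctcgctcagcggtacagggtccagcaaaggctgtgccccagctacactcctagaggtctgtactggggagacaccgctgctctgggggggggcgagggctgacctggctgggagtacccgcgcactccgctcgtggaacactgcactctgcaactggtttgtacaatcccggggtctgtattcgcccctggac
Tet2: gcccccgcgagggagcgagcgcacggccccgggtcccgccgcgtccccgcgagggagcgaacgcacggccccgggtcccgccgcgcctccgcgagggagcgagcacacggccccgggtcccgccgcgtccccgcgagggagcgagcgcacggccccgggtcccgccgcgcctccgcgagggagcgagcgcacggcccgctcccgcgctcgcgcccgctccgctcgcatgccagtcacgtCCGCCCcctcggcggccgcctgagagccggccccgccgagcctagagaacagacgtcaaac
CpG dinucleotides numbered 57 in the Tet2 window, more than in 99.8% of the 32841 RefSeq windows of the same length, whose median was 7. The upstream Dnmt3a window held 46 and the internal one 18, and Dnmt3b had 30, Tet3 22 and Tet1 17. Members with several starts differed within the gene, from 2 to 33 CpG at Dnmt1 and from 12 to 33 at Uhrf1. Dnmt3l, with 3 to 6 in its windows, was the member without a CpG-rich start, and the Tdg window held 26. A GC box was present in 12 of the 16 windows, against 35.7% of all windows, and a CCAAT box (CCAAT or ATTGG, either strand) in 6 of 16, against 37.4%. The match describes the letters alone.

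Library sizes ran from 9857527 to 28547356 reads, smallest at 5 min. They were read from the steps between low RPKM values, and each member then came out at a whole number of reads in each of the 12 libraries, from 60 reads (Dnmt3l at 5 min) to 28616 (Tet1 in steady state). The length behind a member's RPKM was the sum of its introns, whereas the study's methods speak of reads in the whole gene. The recovered length shows the divisor and not which reads were counted, so whether exonic reads are in these values is not settled here. Counting error was largest for Dnmt3l, which had the fewest reads. Markers fixed for naive embryonic stem cells (8 genes, among them Pou5f1, Nanog and Esrrb) summed to between 182 and 197 RPKM in steady state, and all 8 passed the filter on low values. At 5 min their sum was lower in the null libraries, at 193 and 244 against 254 and 274 in WT, with 7 of 8 lower and a median log2 difference of -0.23. At 10 min it was 289 and 276 against 297 and 326, with 6 of 8 lower, whereas 6 of 8 were higher in steady state. Zfp42 was the largest term of the sum, with steady-state means of 84.05 in WT and 77.17 in the null libraries. Pou5f1 had a higher mean in the null libraries in each condition, with overlapping libraries at 5 min. Its log2 differences were 0.73, 0.21 and 0.44 (limma adjusted p = 0.227, 0.888 and 0.152). Klf4, a naive pluripotency factor named after its values were seen, had a 5-min difference of -0.52 (limma adjusted p = 0.511, and 0.0428 with all 12 libraries in 1 fit). The 8 feeder fibroblast markers summed to 1.43 and 1.76 in WT against 1.46 and 1.23 in the null libraries in steady state, to 1.498 and 1.69 against 1.25 and 0.876 at 5 min, and to 2.71 and 2.17 against 1.94 and 1.57 at 10 min. Markers of other cells were also low in steady state: the 3 primed epiblast markers summed to between 1.32 and 2.33, the 4 of primitive endoderm to between 0.398 and 0.589, and the 3 neural markers, of which 1 was at 0 in all 4 libraries, to between 0.360 and 0.611. The 4 markers of 2-cell-like cells summed to 0.455 and 0.294 in WT against 0.153 and 0.173 in the null libraries in steady state, to 0.945 and 1.13 against 0.0945 and 0.264 at 5 min, and to 0.676 and 0.431 against 0.228 and 0.336 at 10 min. Of these 4 only Usp17la passed the filter on low values, and only at 5 min. It was then at 0.641 and 0.578 in WT against 0.0279 and 0.135 in the null libraries. Its log2 difference was -2.03 (limma adjusted p = 0.444, and 0.0242 with all 12 libraries in 1 fit). The part of any of these cell types in the differences below was not tested. In bulk samples fewer cells of a type and less RNA per cell cannot be told apart.

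In steady state the oxidases Tet1 and Tet2 were the most transcribed members per length and Dnmt3a the least. In WT the mean RPKM (± SD, n = 2) was 13.97 ± 0.770 for Tet1, 12.7 ± 0.129 for Tet2, 6.50 ± 0.282 for Uhrf1, 5.13 ± 0.130 for Dnmt1, 2.48 ± 0.255 for Tdg, 1.79 ± 0.0445 for Dnmt3b, 1.17 ± 0.0806 for Dnmt3l, 0.802 ± 0.0282 for Tet3 and 0.447 ± 0.0767 for Dnmt3a. The order was the same in the null libraries, and in each genotype no member's pair of libraries overlapped with that of its neighbour in the order. Tet1 lay above 96.8% of the expressed genes of the WT libraries, Uhrf1 above 90.4%, Dnmt1 above 86.2%, Dnmt3b above 47.2% and Tet3 above 14.3%, where expressed means a mean above 0.5 RPKM. Dnmt3a fell below that limit in WT. The maintenance pair and the oxidases Tet1 and Tet2 thus stood apart from the de novo genes, and Tet3 was 17.4-fold below Tet1. This order depends on the length used, the summed introns of all transcripts. The shortest transcript covers 14.1% of it for Dnmt3a and 35% for Dnmt3l, so a level confined to that transcript would be understated. The plot of RPKM by library shows each of these levels.

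**Figure D1:**
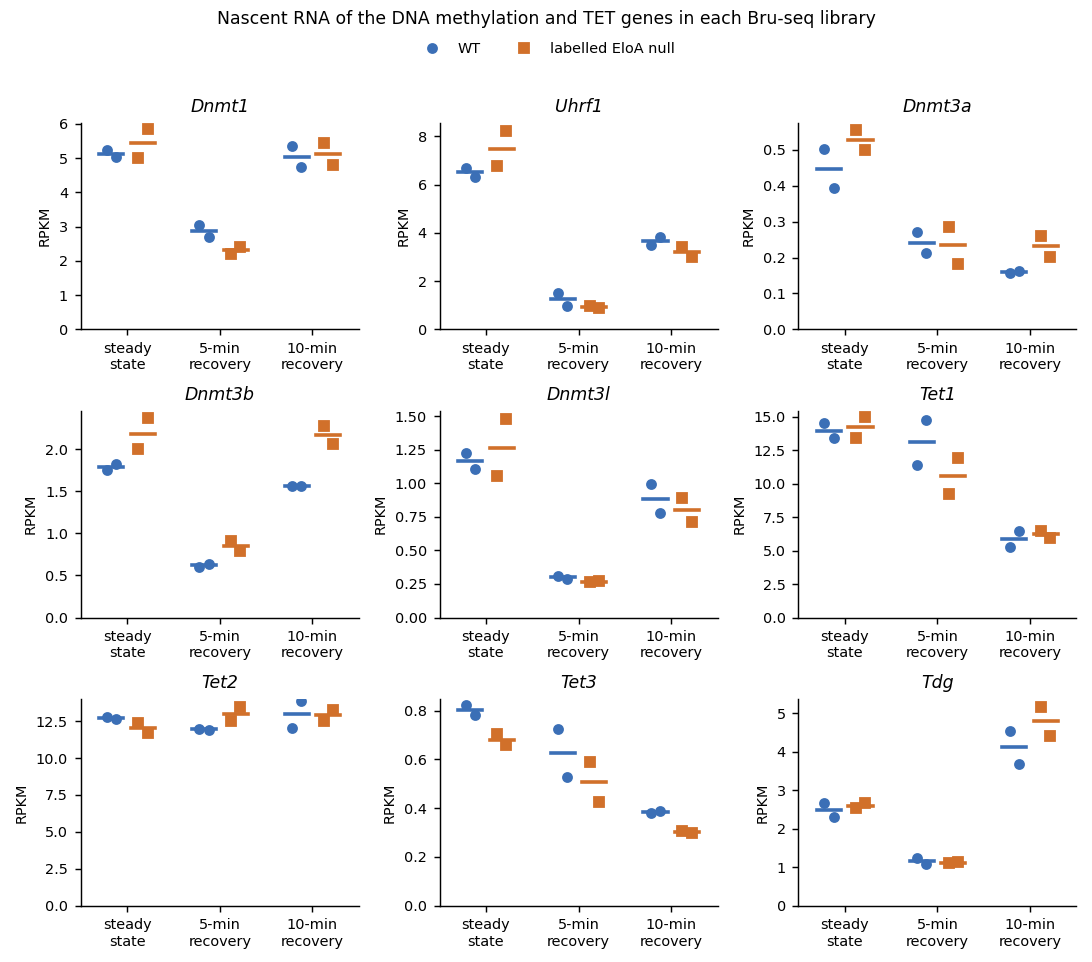
RPKM of the 9 members (vertical axes from 0, each with its own scale) in each of the 12 Bru-seq libraries, by condition. Blue circles are WT libraries, orange squares the libraries labelled EloA null, and bars the mean of 2. Dnmt3b is the member whose null libraries lie above both WT libraries in all 3 conditions, and Tet1 and Tdg move in opposite directions between 5 and 10 min of recovery.

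No member was called between genotypes in any of the 3 conditions, and neither was any other gene. limma on log2(RPKM + 0.1) with Benjamini-Hochberg adjustment over all genes with a mean above 0.5 RPKM in either genotype called 0 of 11347 genes in steady state, 0 of 8985 at 5 min and 0 of 10241 at 10 min, that is 0% in each. An unadjusted p under 0.05 was reached by 18.4%, 9.42% and 20.5% of these genes and by 0 of 9, 0 of 7 and 1 of 7 members. Dnmt3a entered the steady-state test only through its null mean, Dnmt3a and Dnmt3l were under the limit at 5 min, and Dnmt3a and Tet3 were under it at 10 min. The median log2 difference (null minus WT) of the members tested was 0.08 in steady state, -0.26 at 5 min and 0.02 at 10 min, beside 0.03, -0.06 and 0.06 over all genes. In steady state 7 of 9 members had a positive difference, of which 4 (Dnmt1, Dnmt3a, Dnmt3l and Uhrf1) came to 0.00 or below once each library's trend with GC content was removed, and 1 (Tet1) did so after median centring.

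For the maintenance pair, no difference between genotypes in the deposited RPKM kept its sign over the 3 conditions. With each library's trend with GC content removed, both genes had negative differences in all 3, none of which passed the correction. Dnmt1 was then at -0.11 in steady state, -0.28 at 5 min and -0.19 at 10 min, and its average in that setting is given with Tet3 below. Dnmt1 (chr9:20907206-20959888, minus strand) was at 5.22 and 5.04 RPKM in the WT libraries and 5.01 and 5.85 in the null libraries in steady state, a log2 difference of 0.08 (SE 0.11, limma adjusted p = 0.742). At 5 min it was at 3.05 and 2.700 against 2.20 and 2.41, with both null libraries below both WT libraries and a difference of -0.31 (SE 0.16, limma adjusted p = 0.626). At 10 min the libraries overlapped again, at 5.35 and 4.72 against 5.45 and 4.79. Both null libraries lay below both WT libraries at 5 min for 25% of all genes tested, so this position was a common one.

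Uhrf1 (chr17:56303337-56323486, plus strand), which guides DNMT1 to replicated DNA, changed side between conditions in the deposited RPKM. In steady state it was at 6.70 and 6.31 RPKM in WT and 6.77 and 8.20 in the null libraries, a log2 difference of 0.19 (SE 0.13, limma adjusted p = 0.458) that became -0.04 without the trend with GC content. At 5 min it was at 1.52 and 0.987 against 0.974 and 0.887, a difference of -0.37 (SE 0.23, limma adjusted p = 0.704) that was -0.08 without the first WT library and -0.65 without the second. At 10 min it was at 3.48 and 3.81 against 3.43 and 2.98, a difference of -0.18 (SE 0.12, limma adjusted p = 0.429) that was -0.46 without the trend with GC content. It ran from -0.28 without the first null library to -0.08 without the second. The genotypes did not overlap in any of the 3 tables, with the null libraries above WT in steady state and below it in recovery. Tested directly, the 5-min effect was lower than the steady-state effect by -0.56 (95% interval -1.16 to 0.04, limma adjusted p = 0.933), and the 10-min effect by -0.38 (-0.97 to 0.22, adjusted p = 1), so the change of side did not exceed the spread between libraries after correction.

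Among the de novo genes, Dnmt3b was the member with more nascent RNA in the null libraries throughout. Dnmt3b (chr2:153649411-153687730, plus strand) was at 1.76 and 1.82 RPKM in WT and 2.00 and 2.37 in the null libraries in steady state, at 0.605 and 0.634 against 0.906 and 0.787 at 5 min, and at 1.56 and 1.57 against 2.28 and 2.07 at 10 min. All 6 null libraries were above the WT libraries of their table. The log2 difference was 0.27 in steady state (SE 0.11, 95% interval -0.02 to 0.56, limma adjusted p = 0.299), 0.39 at 5 min (SE 0.19, -0.08 to 0.86, adjusted p = 0.59) and 0.45 at 10 min (SE 0.10, 0.17 to 0.72, adjusted p = 0.155). Averaged over the 3 conditions in 1 limma fit of all 12 libraries, a test added after the single tables had been seen, the difference was 0.37 (SE 0.06, 95% interval 0.23 to 0.51, adjusted p = 0.00618), a 1.29-fold geometric mean on the log2(RPKM + 0.1) scale.

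Dnmt3b was the only one of the 9 members called in that average, and the call is common: 18.5% of 11975 genes were called and 10.4% in the same direction, and Dnmt3b ranked 588 by p. Its average remained positive, with adjusted p between 0.00618 and 0.0248, in each alternative of scaling, pseudocount or left-out library. The steady-state difference was 0.39 without the null library whose genotype label reads wild type and 0.15 without the other null library. Dnmt3b has 1 annotated window in RefSeq, the GC-rich one printed above, and its length behind the RPKM hardly depends on the transcript, with 99% of the summed introns in its shortest one.

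Dnmt3a and Dnmt3l passed the limit of 0.5 RPKM, and were tested, in only part of the conditions. Dnmt3a (chr12:3801559-3914443, plus strand) was at 0.501 and 0.392 RPKM in WT and 0.556 and 0.501 in the null libraries in steady state, a log2 difference of 0.21 (SE 0.18, limma adjusted p = 0.568). It was at 0.270 and 0.213 against 0.286 and 0.182 at 5 min and at 0.158 and 0.163 against 0.260 and 0.202 at 10 min, where the null libraries were above the WT libraries, with 291 to 565 reads behind each value and no test. The shortest Dnmt3a transcript, from the internal start printed above, covers 14.1% of the intron length used, so a change confined to it would be diluted in this value, and the antisense transcripts Dnmt3aos and Gm31623 overlap the gene. Dnmt3l (chr10:78042287-78063622, plus strand) was at 1.22 and 1.11 RPKM against 1.05 and 1.48 in steady state, at 0.312 and 0.287 against 0.262 and 0.270 at 5 min, and at 0.995 and 0.775 against 0.887 and 0.712 at 10 min. Its log2 difference was 0.09 (SE 0.18) in steady state and -0.13 (SE 0.19) at 10 min, with overlapping libraries in both. Its span shares 1324 bases with Aire on the other strand, and the libraries were directional and their alignments were split by strand, but whether the counting used this is not given in the sources used here.

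**Figure D2:**
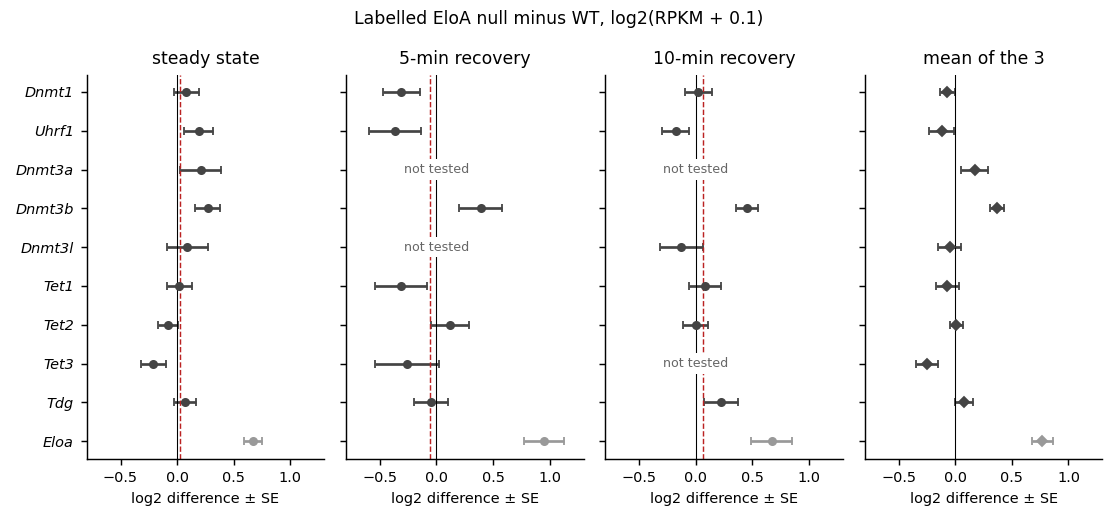
Log2 difference of RPKM + 0.1 between the libraries labelled EloA null and WT (horizontal axis, null minus WT, points with SE bars) for each member and Eloa in the 3 conditions and averaged over them. The dashed red line is the median of all genes tested. Dnmt3b is to the right of 0 in every panel, at 0.27, 0.39, 0.45 and on average 0.37, while Tet3 is to the left where tested.

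Of the oxidases, only Tet3 had a mean difference of the same sign in each condition. Tet3 (chr6:83362373-83457208, minus strand) was at 0.822 and 0.782 RPKM in WT and 0.703 and 0.658 in the null libraries in steady state, a log2 difference of -0.21 (SE 0.11, limma adjusted p = 0.38). At 5 min the libraries overlapped, at 0.726 and 0.529 against 0.587 and 0.424, with a difference of -0.26 (SE 0.28, limma adjusted p = 0.819). At 10 min Tet3 was under the limit of 0.5 and was not tested, but its null libraries, at 0.305 and 0.299, lay below both WT libraries at 0.380 and 0.390. The average over the 3 conditions was -0.25 (SE 0.10, 95% interval -0.47 to -0.03) and did not pass the correction (limma adjusted p = 0.109). This average passed with the replicate number as a block in the fit, where 2430 of 11975 genes were called. Leaving out 1 library, it was -0.31 without the second WT or the first null library at 5 min. It was -0.18 without the first WT or the second null library at 5 min, and between these values for every other library. With the trend with GC content removed it was -0.34 and passed (adjusted p = 0.0302), as did Dnmt1 at -0.18 (adjusted p = 0.0228), where 19.3% of all genes were called. The lncRNA B230319C09Rik overlaps 6568 bases of Tet3 on the other strand and had 0.576 RPKM in WT in steady state.

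Tet1 and Tet2, the abundant oxidases, had small differences of both signs. Tet1 (chr10:62804570-62887469, minus strand) was at 14.5 and 13.4 RPKM against 13.4 and 15.0 in steady state, at 11.4 and 14.7 against 9.21 and 11.9 at 5 min, and at 5.27 and 6.47 against 6.44 and 5.96 at 10 min. The genotypes overlapped in every table, and the log2 differences were 0.02 (SE 0.11), -0.31 (SE 0.23) and 0.08 (SE 0.14). Tet2 (chr3:133463677-133545136, minus strand) was at 12.8 and 12.6 against 12.3 and 11.7 in steady state, at 11.99 and 11.9 against 12.5 and 13.5 at 5 min, and at 12.02 and 13.9 against 12.5 and 13.3 at 10 min. Its null libraries were below WT in steady state, by -0.08 (SE 0.09, limma adjusted p = 0.666), and above it at 5 min, by 0.12 (SE 0.17, adjusted p = 0.878). The 2 effects differed by 0.20 (95% interval -0.11 to 0.52, limma adjusted p = 0.933). On average over the 3 conditions, Tet2 differed by 0.01 with a 95% interval from -0.12 to 0.14, the narrowest among the members.

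Tdg, whose glycosylase cuts out further oxidised forms of methylcytosine, also gave overlapping genotypes throughout. Tdg (chr10:82629814-82650799, plus strand) was at 2.66 and 2.297 RPKM in WT and 2.53 and 2.66 in the null libraries in steady state, at 1.24 and 1.08 against 1.10 and 1.13 at 5 min, and at 4.55 and 3.67 against 5.17 and 4.42 at 10 min. The log2 differences were 0.07 (SE 0.10), -0.05 (SE 0.15) and 0.22 (SE 0.15, limma adjusted p = 0.45). A row named Gm9855 holds the values of Tdg multiplied by 1.0002 in all 12 libraries, so the tables list the reads of this locus under both names.

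Counts of members whose genotypes did not overlap can be read beside the shares of all genes. In steady state 2 of 9 members were above WT in both null libraries (Dnmt3b and Uhrf1), where 32% of all genes tested were, and 2 of 9 below it (Tet2 and Tet3), where 21.4% were. At 5 min 2 of 7 were above (Dnmt3b and Tet2) beside 15.4%, and 2 of 7 below (Dnmt1 and Uhrf1) beside 25%. At 10 min 1 of 7 was above (Dnmt3b) beside 33.5%, and 1 of 7 below (Uhrf1) beside 21.8%. No genotype effect of a member differed between recovery and steady state at an adjusted p under 0.05, where limma called 0.0811% of 8628 genes at 5 min and 0.0102% of 9825 at 10 min. The lowest unadjusted p among the members was that of Dnmt1 at 5 min, whose effect was -0.39 relative to steady state (95% interval -0.77 to 0.00, limma adjusted p = 0.916).

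Release from FP gave these genes very different time courses. When Pol II resumes elongation from the start of a gene, reads are confined to its first kilobases for some minutes. Polymerases that were already beyond the block when the drug was added leave a short gene sooner than a long one. The part of such polymerases in the values of the members was not tested. Nascent RNA at 5 and 10 min is given here as a share of the mean steady-state RPKM of the same genotype. How the 3 tables were scaled to each other is not given in the sources used here, and the labelling time differed, so these shares are descriptions and were not tested. Dividing each library by its median over genes expressed in all tables first moved 35 of the 36 shares by more than their SD.

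The 3 shortest members, alike in annotated span, came back at different paces. Dnmt3l also has annotated starts 7.55 and 13 kb into its span, and which start these cells use was not tested. In WT, Uhrf1 (20.1 kb) was at 0.193 ± 0.0578 of its steady-state level at 5 min and 0.560 ± 0.0364 at 10 min (SD, n = 2), and Dnmt3l (21.3 kb) at 0.257 ± 0.0149 and 0.759 ± 0.134. Tdg (21 kb), of similar span, was at 0.467 ± 0.0449 and then 1.66 ± 0.250, above its steady-state level. The median gene of 20 to 40 kb in WT was at 0.469 at 5 min and 1.18 at 10 min. Uhrf1 thus lay above only 8.4% of the 2226 genes of this length at 5 min and 16.1% at 10 min, and Tdg above 49.7% and 70.7%. In the null libraries Uhrf1 was lower still in that order, at 0.124 ± 0.00814 and 0.428 ± 0.0428, above 4.85% and 9.43% of the 2248 genes of its length, and Tdg was at 0.430 and 1.85. Divided by the library medians, Uhrf1 in WT was at 0.243 and 0.427 and Tdg at 0.595 and 1.26.

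The members of middle length were at 0.872 or more of their steady-state RPKM by 10 min, a closeness that rests on the scaling. Dnmt3b (38.3 kb) was at 0.346 ± 0.0114 and 0.872 ± 0.00234 in WT and at 0.387 ± 0.0386 and 0.994 ± 0.0666 in the null libraries. Dnmt1 (52.7 kb) was at 0.561 ± 0.0487 and 0.982 ± 0.0856 in WT and at 0.424 ± 0.0273 and 0.942 ± 0.0861 in the null libraries. The median WT gene of 40 to 80 kb was at 0.483 and 0.723, and Dnmt1 lay above 73% of these genes at 10 min. Dnmt3b lay above 33.7% of the WT genes of 20 to 40 kb. Divided by the library medians, the 10-min shares were 0.663 in WT and 0.725 in the null libraries for Dnmt3b and 0.745 and 0.687 for Dnmt1.

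The long members separated Tet2 from the rest. Tet1 (82.9 kb) and Tet2 (81.5 kb) were alike at 5 min in WT, at 0.936 ± 0.168 and 0.940 ± 0.00537 of steady state. In the null libraries they were already apart at 5 min without overlap, at 0.743 ± 0.133 for Tet1 and 1.08 ± 0.0572 for Tet2. By 10 min Tet1 had dropped to 0.420 ± 0.0605 in WT while Tet2 was at 1.02 ± 0.105, and the null libraries were at 0.437 ± 0.0240 and 1.07 ± 0.0450. The ratio of the 10-min to the 5-min mean was 0.449 for Tet1 and 1.08 for Tet2 in WT, and 0.588 and 0.991 in the null libraries. Tet3 (94.8 kb) went from 0.782 to 0.480 in WT and from 0.743 to 0.444 in the null libraries, and Dnmt3a (113 kb) from 0.541 to 0.360 in WT, while in the null libraries it was at 0.443 and 0.438. The median WT gene of 80 to 160 kb went from 0.786 to 0.582, in the same direction as Tet1 and Tet3. These length classes use the annotated span. The start of the Tet3 window lies 15.5 kb into its span, and the internal start of Dnmt3a 90.2 kb into its own. Which starts these cells use was not tested. Tet2 at 10 min lay above 92.3% of the 1008 WT genes of this length and above 94.5% of the 1010 in the null libraries. Divided by the library medians, Tet2 in WT was at 1.20 at 5 min and 0.776 at 10 min, and Tet1 at 1.20 and 0.321, so the gap between them remained.

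**Figure D3:**
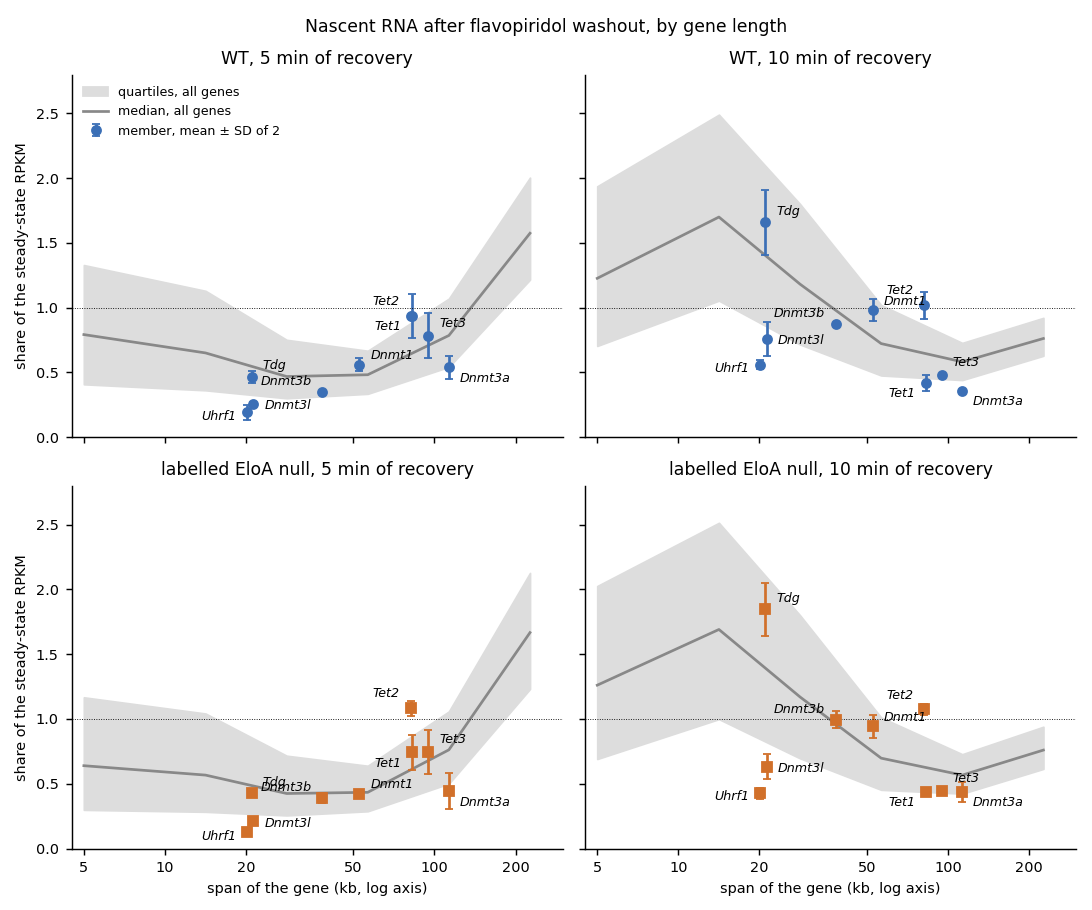
Share of the steady-state RPKM (vertical axis) after 5 and 10 min of recovery from flavopiridol against the span of the gene (horizontal log axis, kb), for WT and for the libraries labelled EloA null. Points are members with the SD of 2 libraries, and the grey line and band are the median and quartiles of all expressed genes in 6 length classes, drawn at class midpoints. The means of Uhrf1 and Dnmt3l are below the drawn band in all 4 panels, and Tet2 is above it at 10 min in both genotypes. The band is joined between class midpoints. Within its own class of 20 to 40 kb, Dnmt3l in WT at 10 min, at 0.759, is above the lower quartile of 0.717 and above 27.3% of the genes.

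Each member's profile over the 12 libraries was set beside those of all genes with a mean above 0.5 RPKM in all 6 groups, and the nearest were taken by the root mean square (RMS) difference of centred log2(RPKM + 0.1) values. Dnmt1 was nearest to Unkl (RMS 0.0703) and Xpot, Tet2 to Uggt1 (0.0725) and Cwf19l2, Tet3 to Phc3 (0.0748) and Nup93, and Uhrf1 to Anp32a (0.121) and Spin1. For Dnmt3b these were Il6ra (0.118) and D030028A08Rik, for Dnmt3l Tex264 (0.105) and Rtel1, for Dnmt3a Snx9 (0.111) and Nf2, and for Tet1 Ino80 (0.168) and Fam110b. Tdg was nearest to its own repeated row Gm9855 and then to Mrps15 (0.0679). Tet1, with the largest RMS to its nearest gene, had the profile least matched in the table among the 9.

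The wider pathway was read from 7 lists of 55 genes in all, chosen with earlier results of these data known. They hold maintenance cofactors, readers of methylated CpG, genes that keep imprints and retrotransposons methylated, regulators of DNMT3 recruitment, TET partners and cofactor supply, base excision repair, and methyl donor supply. None was called in the fits within a table: 0 of 50 tested in steady state, 0 of 43 at 5 min and 0 of 47 at 10 min, with an unadjusted p under 0.05 for 8, 5 and 8 of them beside 18.4%, 9.42% and 20.5% of all genes. In steady state 29 were higher and 21 lower in the null libraries, with a median log2 difference of 0.06 against 0.03 for all genes. At 5 min 13 were higher and 30 lower with a median of -0.06, equal to that of all genes, and at 10 min 24 were higher and 23 lower with a median of 0.01 against 0.06. By list, the steady-state median ran from -0.07 for the maintenance cofactors to 0.12 for the readers of methylated CpG.

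In each list, the gene with the largest steady-state difference among those without overlap between genotypes gives the range. Gadd45a, a stress-induced gene linked to active demethylation, was at 1.22 and 0.917 RPKM in WT and 2.21 and 2.00 in the null libraries, a log2 difference of 0.92 (SE 0.16, limma adjusted p = 0.117). Ehmt2, which encodes the histone methyltransferase G9a, was at 0.787 and 0.849 against 1.14 and 1.51, a difference of 0.62. Shmt2, of the mitochondrial folate cycle, differed by 0.47, Cxxc5, a CXXC-domain gene, by 0.37, Trim28, the corepressor of KRAB zinc finger proteins, by 0.26 and Mbd3, of the NuRD complex, by 0.24. These 6 were higher in the null libraries. Uhrf2, the paralogue of Uhrf1, was lower, at 3.67 and 3.90 RPKM in WT and 2.95 and 2.69 in the null libraries, a difference of -0.41 (SE 0.09, limma adjusted p = 0.156).

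The fit of all 12 libraries, which shares 1 estimate of the spread, called some pathway genes: 1 of 50 in steady state, 4 of 43 at 5 min and 2 of 47 at 10 min, where 1.16%, 5.92% and 2.58% of all genes were. They are named here after their values were seen. Apex1, the endonuclease of base excision repair, was called in all 3 conditions, at 6.58 and 7.46 RPKM in WT against 11.9 and 11.3 in steady state, a difference of 0.72 (adjusted p = 0.0368 in that fit). Apex1 lies on chromosome 14, where 92.8% of the 416 genes tested had both null libraries above WT in steady state with a median log2 difference of 0.50, against 29.7% and 0.02 on the other chromosomes. No member of the 9 lies on chromosome 14, and of the 55 pathway genes only Apex1 and Neil2 do. Uhrf2 was called in both recovery tables, with differences of -0.79 at 5 min (adjusted p = 0.0106) and -0.65 at 10 min (adjusted p = 0.0276). In the deposited RPKM, Uhrf2 thus lay below WT in all 6 null libraries while Uhrf1 changed side. The other calls were Ahcy (-0.64, adjusted p = 0.0424) and Shmt1 (-0.51, adjusted p = 0.0248) at 5 min, genes of S-adenosylhomocysteine removal and of the folate cycle. In the same fit 0 of the 9 members were called, with adjusted p for Dnmt3b of 0.335, 0.0734 and 0.0689.

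**Figure D4:**
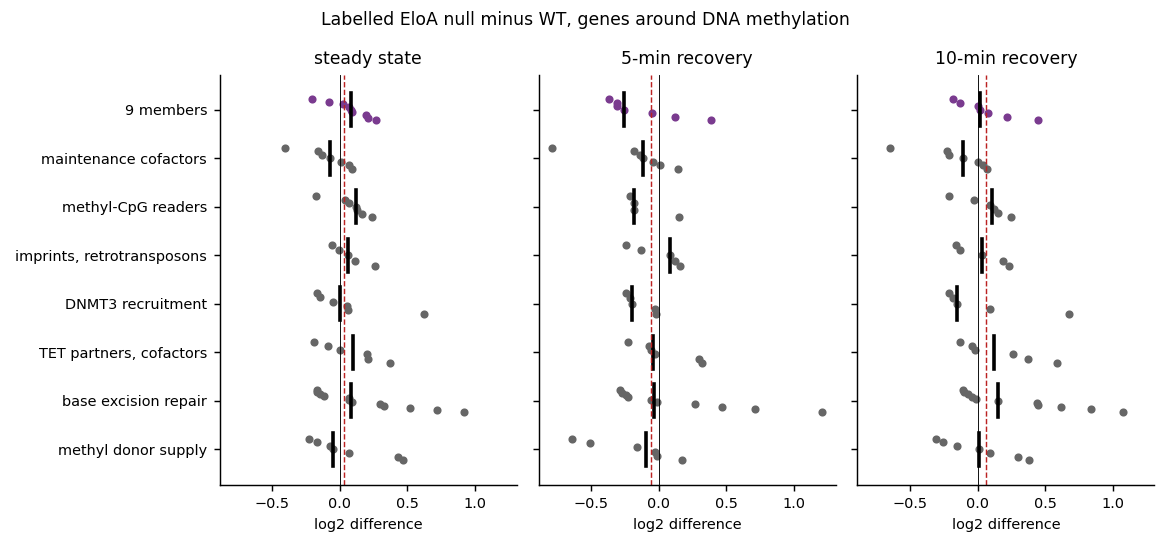
Log2 difference of RPKM + 0.1, null minus WT (horizontal axis), of every tested gene of the 9 members and of 7 pathway lists (rows) in the 3 conditions. Each dot is a gene, black bars are list medians, and the dashed red line is the median of all genes tested. The member median of -0.26 at 5 min is below the 7 list medians, of which the lowest is -0.20, while 0.08 in steady state and 0.02 at 10 min lie among them, and the farthest dots to the right, in the base excision repair row, are Gadd45a at 0.92 in steady state and Gadd45b at 1.21 and 1.08 in recovery.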

How the data were processed

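Bru-seq gave 12 libraries of nascent RNA. Per the study's methods, the authors mapped read pairs to mm10 and dm3 with Bowtie2, retained unique alignments, split them by strand, used featureCounts 1.6.1 for counting over the full span of RefSeq genes, normalized with edgeR and deposited RPKM, 1 table per condition, replicates not pooled. Strand use in the counting, the RefSeq release and the scaling between tables are not given in the sources used here. The mean columns equal the mean of the libraries. Library sizes were recovered from the steps of RPKM, with summed introns as length (97.1% to 97.7% of the low genes whole within 0.05 reads), and served for depth only. Genes were matched to GRCm38.p6 by symbol (24418) or older symbol (423), and 143 were not matched. limma 3.58.1 (R 4.3.3) with an intensity trend was run on log2(RPKM + 0.1) for genes above 0.5 RPKM in either genotype, since RPKM are not counts, and was tested on simulated data. Named genes were the members, Eloa, the non-overlapping pathway gene with the largest steady-state difference per list, any called pathway gene, and the 2 nearest profiles per member. Single values allow no exact permutation p below 0.333 with 2 against 2 libraries. The members and lists were chosen with earlier results of these data known. Another 16 samples were not analysed here.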

Additional observations from a re-analysis of the deposited data

How the results depend on the processing

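Across scaling, pseudocount, filter, variance, left-out library and genotype-label alternatives, 0 members were called within any condition and 0 differed in genotype effect between conditions. The number called in the average over the 3 conditions, an analysis added after seeing the data, was 1. It became 3 with the GC trend removed (Dnmt3b, Tet3 and Dnmt1) and 2 with a replicate block (Dnmt3b and Tet3). Leaving out 1 library, the average of Tet3 ran from -0.31 to -0.18, with both ends reached by leaving out libraries at 5 min. Whether libraries of the same replicate number share a batch is not given in the sources used here, so a pairing cannot be told from these labels. With 2 pairs per condition, deviations of same-numbered libraries correlated at 0.10, 0.12 and 0.10. The block gave 0, 128 and 0 calls over all genes (0, 0 and 0 without it), and it called 0 members within a condition. Small differences changed sign under other settings, and the cause was not tested. In steady state, removing the GC trend gave -0.11 for Dnmt1, 0.00 for Dnmt3a, -0.09 for Dnmt3l and -0.04 for Uhrf1, and median centring gave -0.04 for Tet1. At 5 min Tdg became 0.02 with median centring, 0.02 with the length trend removed and 0.01 with the GC trend removed. At 10 min median centring gave -0.07 for Dnmt1 and -0.01 for Tet1, the length trend 0.05 for Tet2, and the GC trend -0.19 for Dnmt1 and 0.03 for Tet2. The 5-min minus steady-state effect of Tet3 became 0.05, 0.00 and 0.12 under those 3 scalings, and the average of Tet2 became -0.01 with median centring. Leaving out 1 library, the steady-state difference ran from -0.06 to 0.10 for Tet1, -0.03 to 0.19 for Dnmt1, -0.13 to 0.32 for Dnmt3l and -0.03 to 0.17 for Tdg. At 5 min it ran from -0.14 to 0.04 for Tdg. At 10 min it ran from -0.07 to 0.11 for Dnmt1, -0.06 to 0.23 for Tet1, -0.11 to 0.10 for Tet2 and -0.29 to 0.03 for Dnmt3l. The recovery minus steady-state effect ran from -0.25 to 0.14 for Tet3 at 5 min and, at 10 min, from -0.08 to 0.21 for Tet1, -0.16 to 0.06 for Dnmt1, -0.45 to 0.00 for Dnmt3l and -0.03 to 0.18 for Tet2, and the average from -0.02 to 0.05 for Tet2 and -0.13 to 0.02 for Dnmt3l. A genotype left with 1 library was assumed to vary like the other. Over all genes, calls in steady state rose from 0 to 132 with all 12 libraries in 1 fit and 81 with robust variances, and at 5 min to 532 and 29. At 10 min they rose to 264 and 26. Depth limits Dnmt3l at 5 min (60 to 91 reads) most.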
